A study of Mus musculus with 14 samples.

Results

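The 10 genes described here build and supply MHC class I, the surface complex that shows peptides from inside a cell to CD8 T cells and natural killer cells. They were taken by name: the heavy chains H2-D1 and H2-K1, their light chain B2m, the peptide transporter subunits Tap1 and Tap2, the loading factor Tapbp, the immunoproteasome subunits Psmb8, Psmb9 and Psmb10, and the class I transactivator Nlrc5. The rule names the genes and uses no threshold on a measured value, but the list was chosen with earlier results of these data known. All 10 were among the 28164 genes with a read and all 10 passed the filter on low counts, which left 7605 genes for testing. They were measured by RNA sequencing of microglia, the resident macrophages of neural tissue, in 14 libraries from 1 retina each. Mice of 12 weeks carried APOE E4/E4 or APOE E3/E3 and were injected in the eye with microbeads, which block drainage of its fluid and serve as a glaucoma model, or were sham injected. There were 3 APOE4 microbead, 4 APOE4 sham, 3 APOE3 microbead and 4 APOE3 sham libraries. Cells were sorted as Fcrls positive, CD11b positive and Ly6c negative, and libraries were made from small numbers of cells. Whether each retina is from its own mouse is not stated, so p-values measure the spread between these libraries, which may in part be technical.

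Class I molecules form in the endoplasmic reticulum. The proteasome cuts cytosolic proteins into peptides, TAP1 and TAP2 pump the peptides across the membrane, and tapasin, the product of Tapbp, holds an empty heavy chain with B2M beside the transporter until a peptide fits. In cells that have met interferon, PSMB8, PSMB9 and PSMB10 replace the catalytic subunits PSMB5, PSMB6 and PSMB7 of the ordinary proteasome, and NLRC5 is recruited to class I promoters and raises their transcription. Resting microglia carry little class I protein, and inflamed or aged microglia carry more.

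Libraries held 453429 to 730134 estimated reads, of which 38.6% to 65.3% lay on 12 genes at satellite repeats, and the 10 genes together had 1136 to 5244 reads in a library. The sort markers Fcrls and Itgam, which encodes CD11b, had reads in every group, though not at equal levels. Itgam was higher in microbead than in sham in both genotypes (edgeR adjusted p = 0.0442 in APOE3 and 0.0466 in APOE4). Fcrls was lower in APOE4 sham than in APOE3 sham without overlap, but did not pass (log2 -1.09 ± 0.24 SE, edgeR adjusted p = 0.201). Ly6c2 had 1 read over the APOE4 microbead libraries, 6 over APOE4 sham, 4 over APOE3 microbead and 6 over APOE3 sham. Mouse Apoe had 8 reads over APOE4 microbead, 5 over APOE4 sham, 27 over APOE3 microbead and 7 over APOE3 sham, and did not pass the filter. Reads of the mouse gene do not tell the labelled APOE E3 and APOE E4 genotypes apart. A list of 12 monocyte markers stood apart in sum, though not in each marker, in the APOE3 microbead libraries. Its summed level was 88.5, 231 and 96.8 CPM (counts scaled to normalised library sizes) in APOE4 microbead 1, 2 and 3, against 67.6 to 92.8 CPM in APOE4 sham. It was 1611, 816 and 328 CPM in APOE3 microbead 1, 2 and 3, against 82.8 to 119.5 CPM in APOE3 sham. All 12 had a read in APOE4 sham and in APOE3 microbead, Hp was at 0 in APOE4 microbead and S100a4 at 0 in APOE3 sham. Single markers did not all follow the sum. In APOE3 microbead 1, 2 and 3, Ly6c2 was at 2.26, 2.23 and 1.78 CPM and Chil3 at 2.26, 160.3 and 3.57 CPM. Ccr2 was at 83.7, 115.8 and 16.05 CPM there, against 4.80 to 18.9 CPM in APOE3 sham. Plac8 was at 15.8, 24.5 and 0 CPM in these microbead libraries. A list of 12 microglial markers summed to 15580 ± 1276 CPM in APOE4 microbead (SD, n = 3), 15110 ± 1364 CPM in APOE4 sham (SD, n = 4), 9555 ± 2560 CPM in APOE3 microbead (SD, n = 3) and 16740 ± 2128 CPM in APOE3 sham (SD, n = 4). The libraries are bulk samples, so fewer cells of a type and less RNA per cell cannot be told apart.

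Per length of transcript, the light chain stood far above the rest. B2m averaged 1737 CPM per kilobase over the 14 libraries, followed by H2-K1 at 346 and H2-D1 at 345.6 CPM per kilobase. Psmb8 was at 66.2, Tapbp at 44.6, Psmb10 at 36.2 and Psmb9 at 22.4 CPM per kilobase, and Tap2 at 17.03 and Tap1 at 16.7 stood next to each other. Nlrc5 was the lowest at 4.62 CPM per kilobase. Between H2-K1 and H2-D1, and between Tap2 and Tap1, the levels per kilobase did not differ beyond the spread over libraries in any group. In APOE3 microbead, for instance, H2-K1 was at 511 ± 169 and H2-D1 at 556 ± 118 CPM per kilobase (SD, n = 3). This rests on the effective lengths used. That of H2-D1 was 2868 bases, above the 2102 bases of its transcript H2-D1-202. Before division by length, H2-D1 was the higher in every group. In APOE3 sham it was at 575 ± 72.3 CPM, against 342 ± 55.1 CPM for H2-K1 (SD, n = 4). Most of the 10 genes lie in the MHC on chromosome 17 of GRCm38: Tapbp, H2-K1, Psmb9, Tap1, Psmb8, Tap2 and H2-D1, in that order of position, while B2m is on chromosome 2 and Psmb10 and Nlrc5 are on chromosome 8.

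In APOE3 retinas, 5 of the 10 genes rose in microbead over sham and none fell: both heavy chains, the light chain, Psmb8 and Nlrc5. Genes were called at a Benjamini-Hochberg adjusted p under 0.05 of the edgeR quasi-likelihood test, adjusted over all genes tested; 3.54% of those were called higher and 1.62% lower in this comparison. The remaining 5 had positive log2 fold changes that did not pass, where 48.7% of all genes had a value above 0. The median log2 fold change of the 10 genes was 0.76, against -0.015 for all genes tested. For 6 of the 10, every APOE3 microbead library lay above every APOE3 sham library, as it did for 7.63% of all genes tested. In APOE4 retinas, none of the 10 genes was called in microbead against sham, a comparison in which 0.197% of all genes tested were called in either direction. At an unadjusted p under 0.05, 4 of the 10 genes stood higher there, against 6.50% of all genes in either direction, and DESeq2 called 1, H2-D1. Their median log2 fold change was 0.31, against -0.0044 for all genes. Libraries of the groups did not overlap for 3 of the 10, against 4.97% of all genes. Because the list was chosen with earlier results known, these contrasts with all genes describe it and do not test it.

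**Figure D1:**
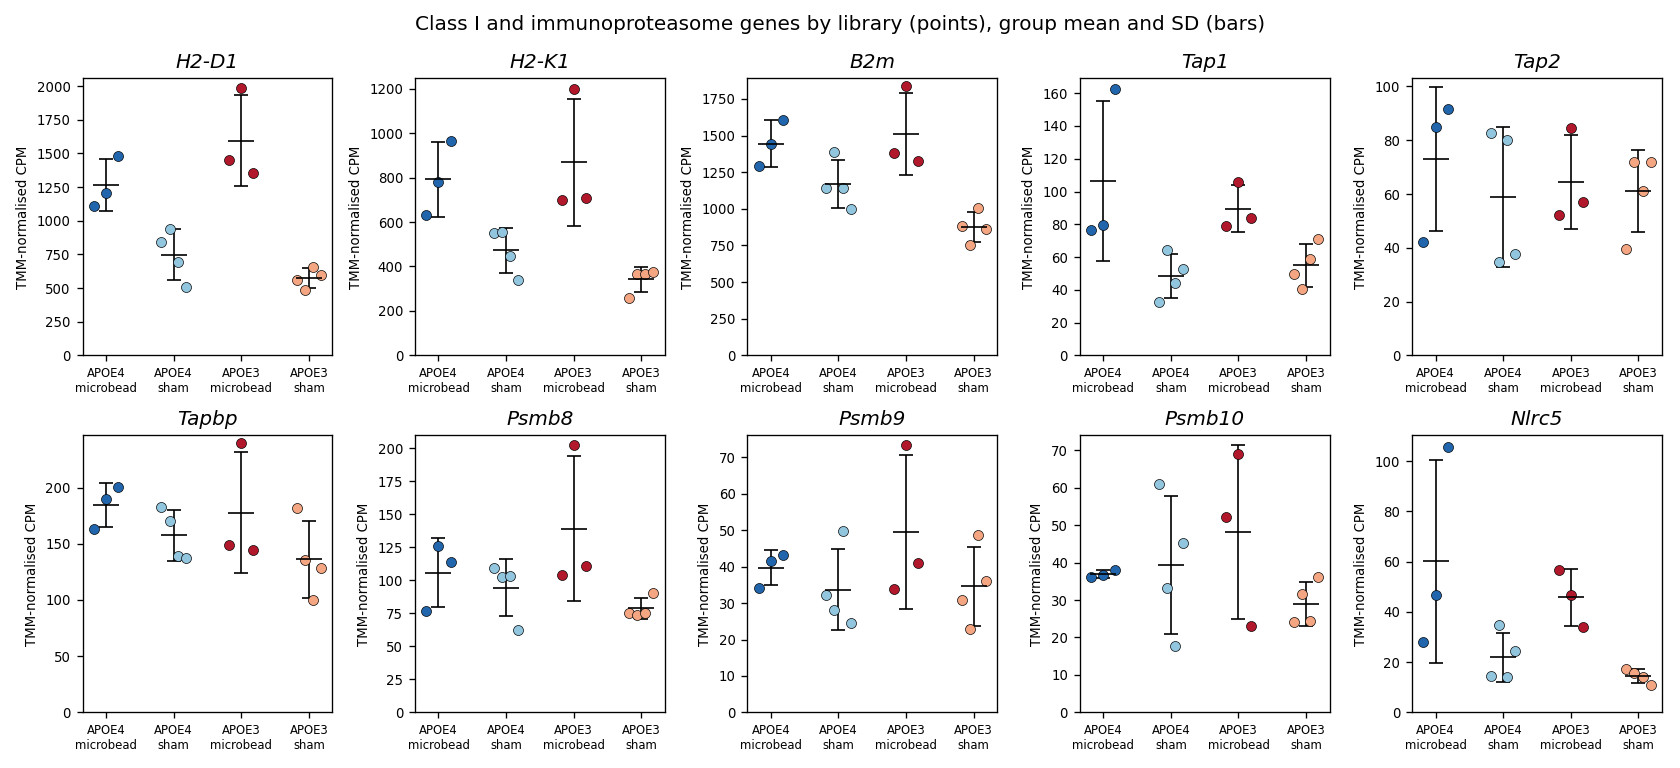
Normalised level (TMM-normalised CPM, y axes from 0) of each of the 10 genes in APOE4 microbead, APOE4 sham, APOE3 microbead and APOE3 sham libraries, 1 point a library, with the group mean as a line and the SD as a bar (n = 3, 4, 3 and 4). H2-D1, H2-K1 and Tap1 lie above sham in all microbead libraries of both genotypes, while Tap2, Tapbp and Psmb9 overlap between groups.

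H2-D1 and H2-K1 encode the polymorphic heavy chains that hold the peptide and meet T cell receptors. H2-D1 (ENSMUSG00000073411.11, GRCm38 chromosome 17, 35262730 to 35267499, plus strand) had 1111, 1207 and 1478 CPM in APOE4 microbead libraries, against 845, 941, 695 and 509.5 CPM in APOE4 sham libraries. It had 1450, 1982 and 1355 CPM in APOE3 microbead libraries, against 562, 485, 658.5 and 595 CPM in APOE3 sham libraries. The microbead libraries lay above the sham libraries in both genotypes, with no overlap. H2-D1 rose 2.78-fold in APOE3 (log2 fold change 1.47 ± 0.20 SE, adjusted p = 2.33e-05, edgeR). In APOE4 its log2 fold change was 0.76 ± 0.20 (SE, unadjusted p = 0.000721, adjusted p = 0.157), which did not pass. It passed in APOE4 under 4 of 27 alternatives, with adjusted p of 0.0405 to 0.0488, among them DESeq2 (0.0488) and no filter on low counts (0.0405).

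The other heavy chain, H2-K1 (ENSMUSG00000061232.16, chromosome 17, 33996017 to 34000347, minus strand), had 629.7, 779.6 and 965 CPM in APOE4 microbead libraries, against 549, 553, 448 and 338 CPM in APOE4 sham libraries. In APOE3 microbead libraries it had 699, 1199 and 706 CPM, against 259, 367, 366 and 375 CPM in APOE3 sham libraries. Again no sham library reached a microbead library of its genotype. The log2 fold change of H2-K1 was 1.35 ± 0.22 in APOE3 (SE, adjusted p = 0.000232, edgeR) and 0.74 ± 0.22 in APOE4 (SE, adjusted p = 0.22, edgeR; 0.0437 in a fit of only the APOE4 libraries).

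B2m (ENSMUSG00000060802.8, chromosome 2, 122147686 to 122153083, plus strand) encodes beta-2 microglobulin, the invariant light chain that class I heavy chains need to reach the surface. It had 1290, 1441 and 1606 CPM in APOE4 microbead libraries, against 1142, 1391, 1144 and 996 CPM in APOE4 sham libraries. It had 1378, 1836 and 1328 CPM in APOE3 microbead libraries, against 884.5, 752, 1006 and 861 CPM in APOE3 sham libraries. In APOE4 the groups overlapped by 1 sham library, and in APOE3 they did not overlap. B2m rose 1.73-fold in APOE3 (log2 0.79 ± 0.18 SE, adjusted p = 0.00544, edgeR), a call that was lost without APOE3 microbead 2 (0.63, adjusted p = 0.0709). In APOE4 the log2 fold change was 0.31 ± 0.18 (SE, adjusted p = 0.853, edgeR).

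The promoters of these 3 genes carry letters known from interferon and NF-kB responses. The sequences below are shown because the genes that present peptide were among those called in APOE3. They were cut by coordinates from RefSeq promoter windows (GRCm38.p6), which run from 250 bases before to 50 after a gene's start and were found for 8 of the 10 genes. Capitals mark NF-kB letters searched as GGGGATTCC or GGGACTTTC, the interferon regulatory factor core AANNGAAA and the Y box CCAAT, each on both strands.
B2m, chr2:122147530-122147658, plus strand: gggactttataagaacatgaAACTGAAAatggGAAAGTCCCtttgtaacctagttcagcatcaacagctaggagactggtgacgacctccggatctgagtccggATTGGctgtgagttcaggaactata
H2-K1, chr17:34000348-34000478, minus strand: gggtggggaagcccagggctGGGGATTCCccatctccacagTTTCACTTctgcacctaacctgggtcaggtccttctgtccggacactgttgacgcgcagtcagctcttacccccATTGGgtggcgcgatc
H2-D1, chr17:35262923-35262951, plus strand: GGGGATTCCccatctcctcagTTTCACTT
In H2-K1 and H2-D1 the NF-kB letters and the interferon core stand in the same order with the same spacing, and in B2m the order is the reverse. The H2-D1 stretch lies upstream of the RefSeq start but inside the first exon of the longer annotated transcript H2-D1-202, so only its elements are shown. Of the 8 genes, 3 had these exact NF-kB letters in a window, B2m, H2-K1 and H2-D1, and 0.603% of 32817 RefSeq promoter windows held them. The letters searched are those that stand in these 3 genes, not a general NF-kB pattern. The count beside the share therefore does not measure enrichment. H2-K1 and H2-D1 are also close copies, so their matches are not separate. The same 3 genes had AANNGAAA, which 23.9% of all windows held. CCAAT stood in these 3 and also in Tapbp, Psmb9 and Tap1, and in 37.4% of all windows. The gamma-activated site TTCNNNGAA, also searched, was in Psmb8 only, and in 8.29% of all windows. The cAMP element core TGACGTCA was in none of the 8 genes, and in 1.79% of all windows. These matches describe letters in a window, not binding.

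H2-D1 and H2-K1 are close copies, and a read from a stretch they share cannot be placed by sequence alone. Of the 31-base words in H2-D1 transcripts, 26.9% also occurred in another gene, 13.8% in H2-K1. For H2-K1 the shares were 22.8% and 11.1%, the second with H2-D1. B2m, Psmb10 and Nlrc5 shared none. The longest run of coding bases common to the main transcripts H2-D1-202 and H2-K1-201 was 91 bases, printed here to show how alike the reads can be.
H2-D1-202 and H2-K1-201, coding sequence, shared run: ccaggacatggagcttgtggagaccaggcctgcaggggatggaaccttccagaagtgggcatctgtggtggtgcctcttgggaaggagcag
The split of reads between the class I genes is therefore uncertain, and the 27 class I H2 genes with a read were also summed to 1 value. H2-D1 and H2-K1 took 71.3% to 81.7% of that sum in a library. The sum was 2175, 2595 and 3199 CPM in APOE4 microbead libraries, against 1874, 2001, 1435 and 1143 CPM in APOE4 sham libraries, without overlap. It was 2659, 3896 and 2541 CPM in APOE3 microbead libraries, against 1101, 1195, 1394 and 1273 CPM in APOE3 sham libraries, also without overlap. The sum rose in APOE3 (log2 1.29 ± 0.20 SE, adjusted p = 0.000181, edgeR) and was at 0.72 ± 0.20 in APOE4 (SE, adjusted p = 0.21, edgeR).

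None of the 3 genes that bring peptide to the heavy chain was called in either genotype. Tap1 (ENSMUSG00000037321.17, chromosome 17, 34187553 to 34197225, plus strand), a transporter subunit known to be induced by interferon, had 76.4, 79.8 and 162.5 CPM in APOE4 microbead libraries, against 32.3, 64.6, 44.5 and 52.8 CPM in APOE4 sham libraries. It had 79.2, 105.8 and 83.8 CPM in APOE3 microbead libraries, against 49.8, 40.4, 58.9 and 70.8 CPM in APOE3 sham libraries. Tap1 did not overlap between microbead and sham in either genotype, and APOE4 microbead 3 was the highest of the 14. Its log2 fold change was 1.13 ± 0.29 in APOE4 (SE, unadjusted p = 0.000518, adjusted p = 0.12) and 0.70 ± 0.28 in APOE3 (SE, adjusted p = 0.197), and neither passed the edgeR test. Without the filter on low counts Tap1 passed in APOE4 (adjusted p = 0.0325). Tap1 overlaps the start of Psmb9 on the opposite strand, and 4.79% of the 31-base words of Psmb9 also occur in Tap1, so reads there cannot be told apart unless strand was used, which is not given in the sources used here.

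Tap2 (chromosome 17, 34203527 to 34216321, plus strand) is the partner subunit without which the transporter does not work. Tap2 ranged over 42.2 to 91.6 CPM in APOE4 microbead and 34.8 to 82.6 CPM in APOE4 sham. In APOE3 it ranged over 52.05 to 84.6 CPM in microbead and 39.5 to 72.04 CPM in sham. The log2 fold changes of Tap2 were 0.32 ± 0.33 in APOE4 and 0.10 ± 0.32 in APOE3 (SE). Tapbp (chromosome 17, 33915899 to 33929292, plus strand), the loading factor, was at 184 ± 19.3 CPM in APOE4 microbead (SD, n = 3) and 157.5 ± 22.9 CPM in APOE4 sham (SD, n = 4). In APOE3 it was at 178 ± 53.5 CPM in microbead (SD, n = 3) and 136 ± 34.2 CPM in sham (SD, n = 4). Neither Tap2 nor Tapbp passed in either genotype, with edgeR adjusted p of 0.462 or higher.

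Of the 3 immunoproteasome subunits, 1 passed in APOE3 and 0 in APOE4. Psmb8 (chromosome 17, 34197721 to 34201454, plus strand), the chymotrypsin-like subunit that takes the place of Psmb5, had 76.4, 126 and 114 CPM in APOE4 microbead libraries, against 109.5, 103, 103 and 62.3 CPM in APOE4 sham libraries. It had 104, 203 and 110.5 CPM in APOE3 microbead libraries, against 75.6, 73.8, 75.2 and 90.04 CPM in APOE3 sham libraries. The APOE3 groups did not overlap, but APOE3 microbead 2 was far above the other microbead libraries. Psmb8 passed narrowly in APOE3 (log2 0.84 ± 0.25 SE, adjusted p = 0.0496, edgeR) and was at 0.17 ± 0.26 in APOE4 (SE, adjusted p = 0.973). Without APOE3 microbead 2 its log2 fold change in APOE3 was 0.44 with an adjusted p of 0.532, and the call was lost in 20 of 26 alternative analyses. Among these were the fits without any 1 of the APOE3 sham libraries, APOE4 sham 1, 2 or 3, or APOE4 microbead 2 or 3, with adjusted p of 0.0573 to 0.123.

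Psmb9 (chromosome 17, 34181987 to 34187764, minus strand), which takes the place of Psmb6, was at 39.7 ± 4.80 CPM in APOE4 microbead (SD, n = 3) and 33.7 ± 11.2 CPM in APOE4 sham (SD, n = 4). In APOE3 it was at 49.5 ± 21.1 CPM in microbead (SD, n = 3) and 34.6 ± 10.9 CPM in sham (SD, n = 4). Psmb10 (chromosome 8, 105935735 to 105938444, minus strand), which takes the place of Psmb7, had 36.2, 36.6 and 38.04 CPM in APOE4 microbead libraries, against 61.03, 33.1, 17.8 and 45.3 CPM in APOE4 sham libraries. Psmb10 had 52.05, 69.03 and 23.2 CPM in APOE3 microbead libraries, against 24.04, 31.6, 24.4 and 36.02 CPM in APOE3 sham libraries. APOE3 microbead 3 thus lay below all APOE3 sham libraries, and the groups overlapped in both genotypes. Neither subunit was called: the log2 fold changes of Psmb9 were 0.24 ± 0.34 in APOE4 and 0.57 ± 0.32 in APOE3 (SE), and those of Psmb10 were -0.085 ± 0.37 in APOE4 and 0.73 ± 0.36 in APOE3 (SE).

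As a share of each immunoproteasome subunit and the subunit it replaces, both taken as CPM per kilobase, Psmb8 made up 74.4% ± 0.915 in APOE4 microbead (SD, n = 3), 63.5% ± 10.4 in APOE4 sham (SD, n = 4), 70.2% ± 10.2 in APOE3 microbead (SD, n = 3) and 69.1% ± 12.7 in APOE3 sham (SD, n = 4). Psmb9 made up 34.1% ± 5.68 in APOE4 microbead, 26.7% ± 11.2 in APOE4 sham, 25.1% ± 7.98 in APOE3 microbead and 25.6% ± 4.48 in APOE3 sham. For Psmb10 the shares were 86.8% ± 6.32 in APOE4 microbead, 70.1% ± 12.5 in APOE4 sham, 79.2% ± 5.50 in APOE3 microbead and 85.4% ± 10.8 in APOE3 sham. Over all transcripts of a gene, Psmb8 and Psmb10 thus exceeded the subunits they replace on average in every group, and Psmb9 did not. Transcripts annotated as retained intron are included, with 53.9% of Psmb8 and 37.9% of Psmb10 reads, so protein coding mRNA was not compared. Psmb7 had 16 to 57 reads in a group. In APOE3 sham 1 it had 0, which set the Psmb10 share there to 100%. The mean shares of APOE4 microbead and APOE4 sham differed by more than the larger of their SDs for Psmb8 and Psmb10 and by less for Psmb9, and those of APOE3 microbead and APOE3 sham by less for all 3 pairs. These shares were not tested.

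Nlrc5 (ENSMUSG00000074151.13, chromosome 8, 94434356 to 94527272, plus strand), the transactivator of class I genes, had 28.2, 46.5 and 105.5 CPM in APOE4 microbead libraries, against 14.4, 34.8, 14.2 and 24.5 CPM in APOE4 sham libraries. It had 56.6, 46.8 and 33.9 CPM in APOE3 microbead libraries, against 17.2, 15.8, 14.2 and 10.8 CPM in APOE3 sham libraries. The APOE3 groups did not overlap, and in APOE4 sham 2 lay above microbead 1. Nlrc5 rose 3.15-fold in APOE3 (log2 1.66 ± 0.42 SE, adjusted p = 0.0139, edgeR) and was at 1.45 ± 0.39 in APOE4 (SE, unadjusted p = 0.000887, adjusted p = 0.172). These values rest on 103, 50, 86 and 35 reads over APOE4 microbead, APOE4 sham, APOE3 microbead and APOE3 sham. The call in APOE3 was lost without APOE3 sham 4 (adjusted p = 0.0517), without APOE3 microbead 1 (0.0639) and without APOE3 microbead 2 (0.06). Without APOE4 microbead 1, Nlrc5 was called in APOE4 (log2 1.78, adjusted p = 0.0485), as it was without the filter on low counts (0.0324).

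**Figure D2:**
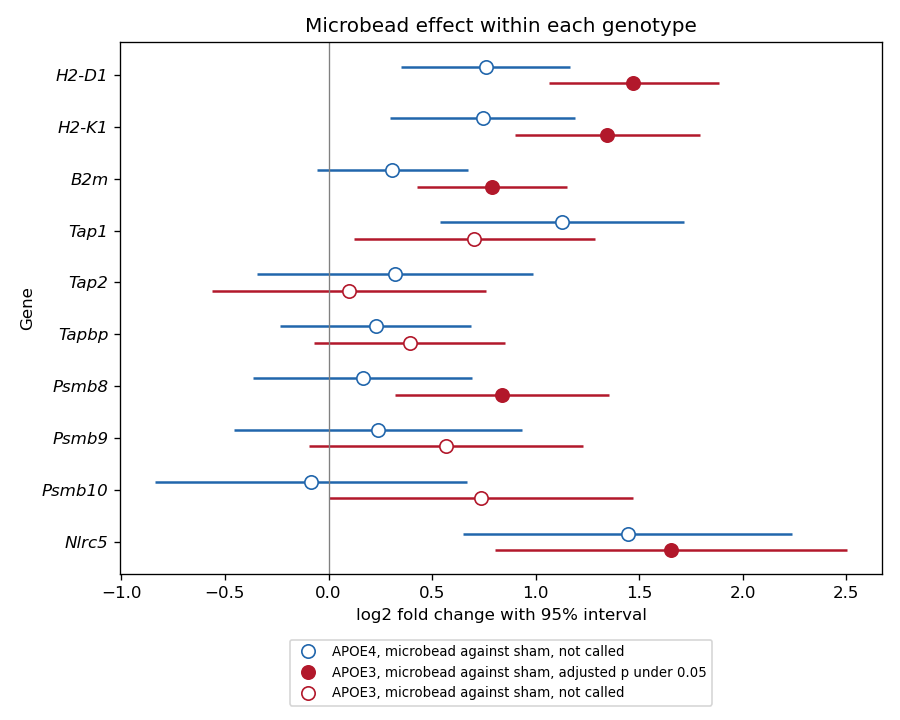
Log2 fold change (x axis) of microbead against sham for each of the 10 genes (y axis), with 95% intervals of the edgeR fit, in APOE4 (blue, upper of each pair) and APOE3 (red, lower of each pair); filled points have an adjusted p under 0.05. The 5 filled points are H2-D1, H2-K1, B2m, Psmb8 and Nlrc5 in APOE3, and the APOE4 intervals of H2-D1, H2-K1, Tap1 and Nlrc5 lie above 0.

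Whether the microbead effect differed by genotype was tested as an interaction, the APOE4 effect minus the APOE3 effect. None of the 10 genes was called, where 0.0920% of all genes tested were called in either direction. At an unadjusted p under 0.05 there was 1 of the 10, H2-D1, against 8.17% of all genes, and DESeq2 called 0 of the 7 to which it gave an adjusted p. The H2-D1 difference was -0.71 ± 0.28 on the log2 scale (SE, adjusted p = 0.45, edgeR), with a 95% interval of -1.3 to -0.13. For H2-K1 the difference was -0.60 ± 0.31, for B2m -0.48 ± 0.25 and for Psmb8 -0.67 ± 0.36 (SE), with intervals that reached 0. Tap1 at 0.42 ± 0.41 and Tap2 at 0.22 ± 0.46 (SE) were the 2 of the 10 with a positive difference, against 50.6% of all genes. A call in APOE3 without one in APOE4 therefore does not show that the genotypes responded differently.

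The direct comparisons of the genotypes share libraries with the comparisons above. After microbeads, APOE4 against APOE3 gave log2 differences of -0.34 ± 0.21 for H2-D1, -0.14 ± 0.23 for H2-K1, -0.067 ± 0.19 for B2m and 0.41 ± 0.39 for Nlrc5 (SE). None of the 10 genes was called, where 0.579% of all genes were, and 0 had an unadjusted p under 0.05, where 9.74% of all genes had. DESeq2 gave an adjusted p to 7 of the 10 there and called 0. The 95% interval for B2m ran from -0.46 to 0.32 and that for H2-D1 from -0.77 to 0.10. After sham, APOE4 against APOE3 gave 0.42 ± 0.17 for B2m, 0.47 ± 0.21 for H2-K1 and 0.38 ± 0.19 for H2-D1 (SE). B2m and H2-K1 had unadjusted p of 0.0182 and 0.0313 and an adjusted p of 0.962 (edgeR), where 4.40% of all genes had an unadjusted p under 0.05. No gene of the 10 was called there by edgeR or DESeq2, against 0.0131% of all genes by edgeR. For the presenting molecules, the order of the group means was the same for H2-D1, H2-K1 and B2m: APOE3 microbead, APOE4 microbead, APOE4 sham, APOE3 sham, from high to low. For Tap1 and Nlrc5 the highest mean was that of APOE4 microbead. Of neighbours within a treatment, none of these 5 genes passed the edgeR test after adjustment.

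In the microbead groups the same libraries were often the highest. APOE3 microbead 2 was the highest of the 14 libraries for 7 of the 10 genes and APOE4 microbead 3 for the other 3. Among the APOE4 microbead libraries, number 3 was the highest for 9 of the 10 and number 1 the lowest for all 10. In APOE4 sham the highest library was number 2 for H2-D1, H2-K1, B2m, Tap1 and Nlrc5. There it was number 1 for Tap2, Tapbp, Psmb8 and Psmb10, and number 3 for Psmb9. In APOE3 sham the highest was number 3 for H2-D1, B2m and Psmb9, and number 4 for H2-K1, Tap1, Psmb8 and Psmb10. For Tapbp and Nlrc5 it was number 1, and for Tap2 number 2. The median of the 10 centred log2 levels was 0.044, 0.32 and 0.50 in APOE4 microbead, against -0.010, 0.051, -0.22 and -0.42 in APOE4 sham. It was 0.23, 0.81 and 0.17 in APOE3 microbead, against -0.46, -0.59, -0.41 and -0.20 in APOE3 sham. The genes outside the 10 whose centred levels over the 14 libraries were nearest to this median were Psap, Dok3, Gpi1, Npc2 and Ctsb, with root mean square differences of 0.170, 0.178, 0.184, 0.186 and 0.192 log2 units, against a median of 0.605 over all genes tested. Among the 10 themselves Nlrc5, Tap2 and Psmb10 lay farthest from it, at 0.57, 0.46 and 0.435 log2 units.

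**Figure D3:**
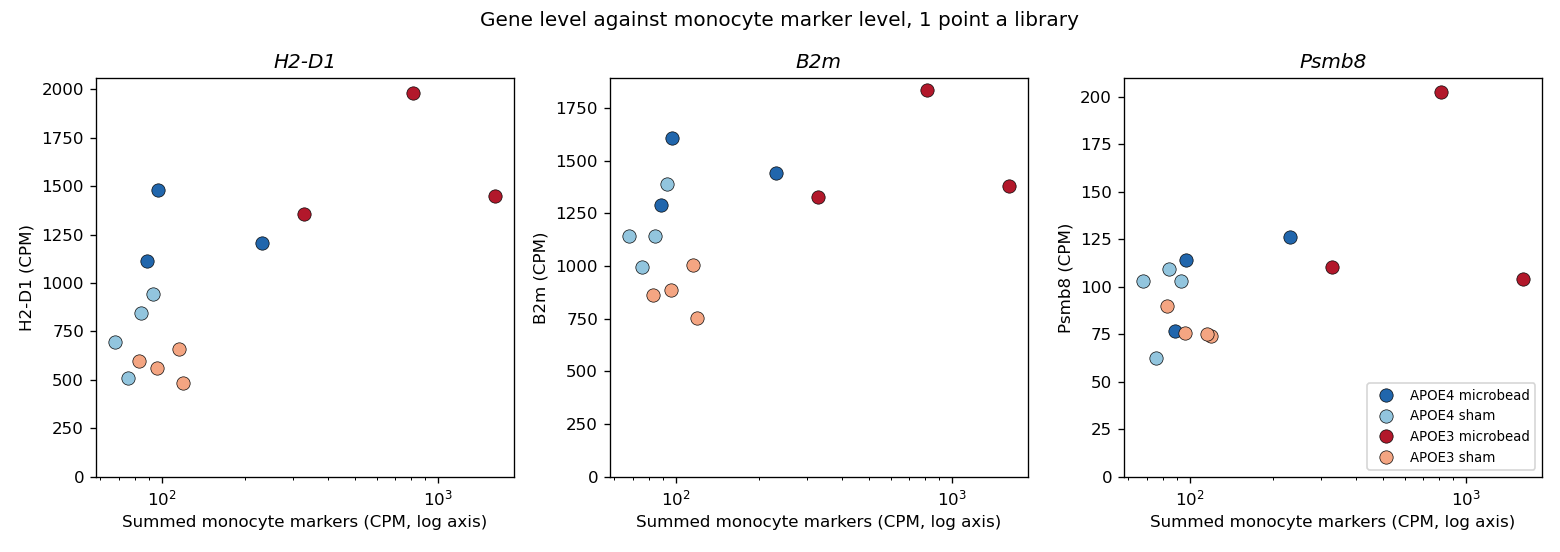
Level of H2-D1, B2m and Psmb8 (CPM, y axes from 0) against the summed level of 12 monocyte markers (CPM, logarithmic x axis), 1 point a library, in APOE4 microbead, APOE4 sham, APOE3 microbead and APOE3 sham. APOE3 microbead 1, with 1611 CPM of monocyte markers, had less H2-D1 than APOE3 microbead 2 with 816 CPM, and APOE4 microbead 3, at 96.8 CPM, had 1478 CPM of H2-D1. The single markers Ccr2, Chil3 and Plac8 were higher in APOE3 microbead 2 than in APOE3 microbead 1.

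The monocyte marker sum was higher beside these genes in the APOE3 microbead libraries. Every APOE3 microbead library had a higher marker sum (328 to 1611 CPM) than every other library (67.6 to 231 CPM). Marker level and group can therefore hardly be told apart. The settings below do not measure the part of monocytes in the result, which was not tested. Nlrc5 had 56.6, 46.8 and 33.9 CPM in APOE3 microbead 1, 2 and 3, the order of the marker sum in these 3 libraries. Its highest level of the 14 libraries was 105.5 CPM, in APOE4 microbead 3, which had 96.8 CPM of markers. APOE3 microbead 1 had the highest marker sum, at 1611 CPM, and 1450 CPM of H2-D1, while APOE3 microbead 2 had 816 CPM of markers and 1982 CPM of H2-D1. Single markers gave another order. In APOE3 microbead 1 and 2, Ccr2 was at 83.7 and 115.8 CPM, Chil3 at 2.26 and 160.3 CPM and Plac8 at 15.8 and 24.5 CPM. Ly6c2 was at 2.26 and 2.23 CPM there. The order by monocyte level thus depends on the markers taken, and the levels of the others in the sum are not given. APOE4 microbead 3 had 96.8 CPM of markers, above the APOE4 sham libraries (67.6 to 92.8 CPM) and within the range of the APOE3 sham libraries (82.8 to 119.5 CPM). Its H2-D1 level was 1478 CPM, above every sham library. With both APOE3 microbead 1 and 2 left out, H2-D1 was called in APOE3 (log2 1.24, adjusted p = 0.00921, edgeR), with the spread of the lone microbead library taken from the other groups. That library, APOE3 microbead 3, had 328 CPM of markers, above the APOE3 sham libraries. Under that setting H2-K1 (1.05, adjusted p = 0.0604), B2m (0.60, 0.326), Nlrc5 (1.23, 0.614) and Psmb8 (0.48, 0.785) were not called. With the marker level as a covariate none of the 10 was called in APOE3 microbead against sham, where 4 of all genes tested were. The log2 values were 1.3 for H2-D1, 1.15 for H2-K1, 0.64 for B2m, 1.11 for Nlrc5 and 0.51 for Psmb8. The dendritic cell list was also higher in APOE3 microbead, at 69.0 ± 34.2 CPM (SD, n = 3), against 34.0 ± 6.79 CPM in APOE3 sham (SD, n = 4). Its part in the result was not tested. The list of 13 T and NK cell markers summed to 17.4 ± 5.46 CPM in APOE4 microbead (SD, n = 3), 13.7 ± 3.11 CPM in APOE4 sham (SD, n = 4), 27.8 ± 5.33 CPM in APOE3 microbead (SD, n = 3) and 20.3 ± 7.67 CPM in APOE3 sham (SD, n = 4), with reads for 9, 8, 9 and 10 of the 13 in these groups. Within it 3 genes, Ifng, Nkg7 and Gzma, had 0 reads in all 14 libraries, which allows up to 0.361 CPM over them (3 counts of the normalised total, counting error only).

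Genes around the class I pathway were followed through lists. Of the 20 other class I and class I-like genes, 11 were tested, and in APOE3 3 of them rose and none fell. These were H2-Q7 (log2 1.67 ± 0.36 SE, adjusted p = 0.00603), H2-T22 (1.47 ± 0.36 SE, adjusted p = 0.011) and H2-Q6 (1.23 ± 0.33 SE, adjusted p = 0.0207), non-classical class I genes whose reads are also shared. In APOE4 the same 3 had log2 values of 0.74, 0.34 and 0.71, and 0 of the 11 was called, with medians over the 11 of 0.62 in APOE4 and 0.79 in APOE3. Peptide trimming and loading chaperones had 0 of 9 called in either genotype. Calr, a chaperone of the loading complex, was at 177 ± 18.7 CPM in APOE4 microbead (SD, n = 3), 145.5 ± 29.1 CPM in APOE4 sham (SD, n = 4), 160.2 ± 20.9 CPM in APOE3 microbead (SD, n = 3) and 115 ± 17.4 CPM in APOE3 sham (SD, n = 4).

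The 14 constitutive core subunits of the proteasome, which every cell uses, were all tested. In APOE3, 1 rose, Psmb1 (log2 0.80 ± 0.23 SE, adjusted p = 0.0401, edgeR), where 3.54% of all genes were called higher. All 14 values were positive with a median of 0.42, against 48.7% of all genes above 0. In APOE4, 0 of 14 passed and 1 of 14 values was positive, against 49.5% of all genes, with a median of -0.33. Psmb7, which Psmb10 replaces, was at 9.89 ± 5.38 CPM in APOE4 microbead (SD, n = 3), 25.4 ± 3.02 CPM in APOE4 sham (SD, n = 4), 21.2 ± 10.5 CPM in APOE3 microbead (SD, n = 3) and 9.87 ± 8.05 CPM in APOE3 sham (SD, n = 4). The interaction was negative for all 14, with a median of -0.78, where 50.6% of all genes had a value above 0. Of the 14, 6 had an unadjusted p under 0.05, against 8.17% of all genes, but none passed. The 14 were measured in the same libraries and are not separate results. Among the 4 tested genes of the activator and assembly list, including the interferon-linked activator subunits Psme1 and Psme2, 0 were called in either genotype.

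Of 22 regulators of class I transcription, 17 were tested and 1 rose in APOE3, where 3.54% of all genes were called higher. It was Stat2, a signal carrier of the type I interferon receptor. Stat2 was at 97.9 ± 31.2 CPM in APOE4 microbead (SD, n = 3), 51.7 ± 11.3 CPM in APOE4 sham (SD, n = 4), 91.0 ± 5.66 CPM in APOE3 microbead (SD, n = 3) and 40.9 ± 8.42 CPM in APOE3 sham (SD, n = 4). Its log2 fold change was 0.92 ± 0.26 in APOE4 (SE, adjusted p = 0.202, edgeR) and 1.15 ± 0.26 in APOE3 (SE, adjusted p = 0.00678, edgeR). Irf1, a transcription factor induced by interferon, was at 0.25 ± 0.34 in APOE4 and 1.02 ± 0.34 in APOE3 (SE) and did not pass. Of the class II presentation genes, 5 of 9 tested rose in APOE3, 0 of 9 in APOE4, and 3 were lower in APOE4 microbead than in APOE3 microbead. H2-Ab1, a class II beta chain, differed there by -3.42 ± 0.54 on the log2 scale (SE, adjusted p = 0.0138, edgeR).

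**Figure D4:**
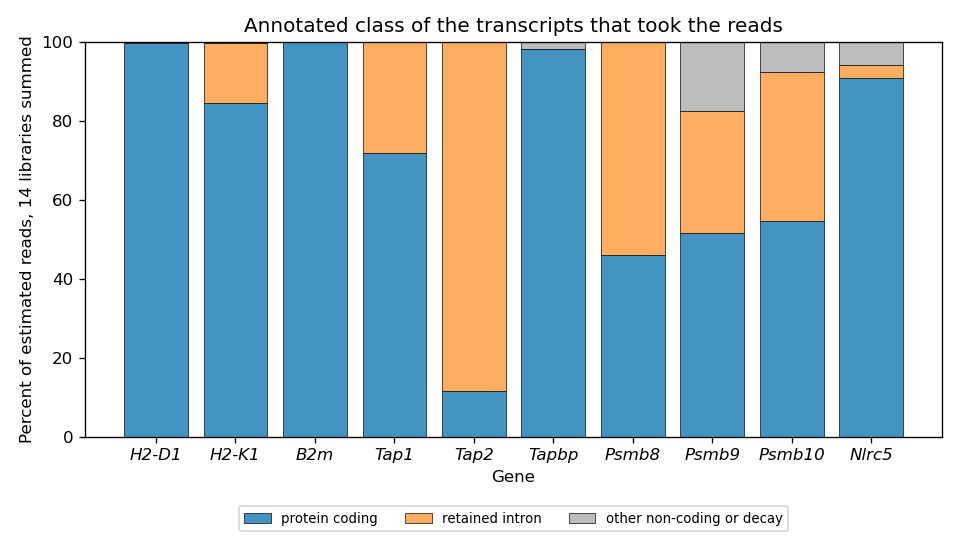
Share of each gene's estimated reads (percent, 14 libraries summed, y axis) on transcripts annotated as protein coding, as retained intron, or as another class (non-coding or marked for decay), for the 10 genes (x axis). Tap2 has 88.5% and Psmb8 53.9% of reads on retained-intron transcripts, and B2m has none.

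The class of the transcripts that took the reads varied between the genes. For B2m and H2-D1, 100% and 99.9% of the estimated reads lay on protein coding transcripts. For Tap2, 88.5% lay on retained-intron transcripts, nearly all on Tap2-202. The retained-intron share was 53.9% for Psmb8, 37.9% for Psmb10, 30.9% for Psmb9 and 27.9% for Tap1. Over all genes tested the median protein coding share was 84.1%, and 21.7% of genes had a share under 50%, as Tap2 and Psmb8 did. With protein coding transcripts only, an analysis added after seeing the data, H2-D1, H2-K1 and B2m were still called in APOE3. Nlrc5 (log2 1.4, adjusted p = 0.102) and Psmb8 (1.55, adjusted p = 0.154) were not. Tap2 was at -2.31 in APOE3 (adjusted p = 0.631, edgeR) and -1.31 in APOE4 (adjusted p = 0.973, edgeR) and was not called. Its main coding transcript, Tap2-201, had 58.8 estimated reads over all libraries.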

How the data were processed

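Per the submitters' processing notes, Salmon 1.4.0 and mm10 were used. The deposited file of each library holds estimated counts and effective lengths per transcript. The deposited series table holds TPM per gene, made by the authors, and served to check labels: recomputed TPM came within 1% of the library's own column for at least 99.2% of genes, and of another library's column for 2.11% or less. GENCODE M21 (GRCm38) gave a gene to 115945 of 116945 transcripts. Gene totals of the estimated counts were rounded.

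Genes were filtered with filterByExpr (minimum count 10, minimum total 15) and tested with edgeR 4.0.16 (R 4.3.3, robust quasi-likelihood, TMM scaling, 4 group means over 14 libraries, two-sided). Benjamini-Hochberg adjustment ran over 7605 genes, with a threshold of 0.05. SE derive from the F statistic, intervals are at 95%, and CPM per kilobase uses 1 mean effective length per gene. Depth limits genes with few reads most: the common biological coefficient of variation was 0.275. Code was tested on simulated counts.

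Named genes are the 10, up to 3 per pathway list with the smallest unadjusted p in each microbead comparison, the 5 nearest in profile, and sort markers. Members and lists were chosen with earlier results of these data known. Alternatives were DESeq2 1.42.0, limma 3.58.1 (voom, and log2 of TPM with a pseudocount of 1), other scalings, filters, lengths and sets of libraries. Same-numbered libraries of different groups did not deviate together, so numbers were not taken as pairs.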

Additional observations from a re-analysis of the deposited data

Results flagged for a closer look

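A sample far from the others was found in 3 of 20 tests (10 genes in 2 sham groups of 4 libraries), where chance gives about 1 in 20. The 10 genes were measured in the same libraries, so the tests are not separate and the count does not measure an excess. In APOE4 sham, Psmb8 was at 62.3 CPM in 1 library and at 103, 103 and 109.5 CPM in the others, with a gap of 0.856 of the group's range. In APOE3 sham, Psmb8 was at 90.04 CPM in 1 library and at 73.8, 75.2 and 75.6 CPM in the others (gap 0.891 of the range). H2-K1 in APOE3 sham was at 259 CPM in 1 library and at 366, 367 and 375 CPM in the others (gap 0.924 of the range).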

How the results depend on the processing

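Over 27 alternatives, the call of H2-D1 in APOE3 microbead against sham was lost with monocyte markers as a covariate (adjusted p = 0.651) and with limma on log2(TPM + 1) (adjusted p = 0.216), and its log2 value stayed between 1.24 and 1.58. H2-K1 lost its call under 3 of 27 alternatives, B2m under 6 of 26, Nlrc5 under 9 of 26 and Psmb8 under 20 of 26. Every sign change below is of a gene that was not called in that comparison. Of the members, 5 were called in APOE3 microbead against sham and 0 in every other comparison, and of all genes 392 in APOE3 microbead against sham, 15 in APOE4 microbead against sham, 7 in the interaction, 44 in APOE4 against APOE3 microbead and 1 in APOE4 against APOE3 sham. With DESeq2, the genes called numbered 35 in APOE4 microbead against sham and 46 in the interaction, and the members called 1 in APOE4 microbead against sham. With limma-voom, the genes called numbered 0 in APOE4 against APOE3 sham. The log2 value changed sign for Psmb10 0.0513 in APOE4 microbead against sham. With library totals as the scaling, the genes called numbered 149 in APOE3 microbead against sham, 3 in APOE4 microbead against sham, 2 in the interaction, 14 in APOE4 against APOE3 microbead and 0 in APOE4 against APOE3 sham, and the members called 3 in APOE3 microbead against sham. Log2 values of the other sign were Psmb8 -0.0416 in APOE4 microbead against sham, Tap2 -0.00428 in the interaction, Tapbp -0.0645 in APOE4 against APOE3 microbead, Tap2 0.0772 and Psmb9 0.13 in APOE4 against APOE3 sham. With no low count filter, the genes called numbered 53 in APOE4 microbead against sham, 29 in the interaction, 111 in APOE4 against APOE3 microbead and 12 in APOE4 against APOE3 sham, and the members called 3 in APOE4 microbead against sham. With length offsets, the genes called numbered 222 in APOE3 microbead against sham, 5 in APOE4 microbead against sham, 24 in APOE4 against APOE3 microbead and 0 in the interaction and APOE4 against APOE3 sham, and the members called 3 in APOE3 microbead against sham. On the log2 scale the sign turned for Psmb9 0.24 in the interaction, Tap2 -0.018 and Nlrc5 -0.57 in APOE4 against APOE3 microbead, Tap1 0.0239 in APOE4 against APOE3 sham. With the satellite genes left out, the genes called numbered 0 in APOE4 against APOE3 sham. With the replicate number as a block, the genes called numbered 5 in APOE4 microbead against sham, 3 in the interaction and 0 in APOE4 against APOE3 sham, and the members called 3 in APOE3 microbead against sham. Sign changes there were Psmb10 0.0851 in APOE4 microbead against sham. With only the libraries compared, the genes called numbered 227 in APOE3 microbead against sham, 44 in APOE4 microbead against sham and 0 in APOE4 against APOE3 sham, and the members called 3 in APOE3 microbead against sham and 2 in APOE4 microbead against sham. With both APOE3 microbead 1 and 2 left out, the genes called numbered 37 in APOE3 microbead against sham, 26 in APOE4 microbead against sham, 1 in the interaction, 2 in APOE4 against APOE3 microbead and 0 in APOE4 against APOE3 sham, and the members called 1 in APOE3 microbead against sham and 1 in APOE4 microbead against sham. The log2 value changed sign for Tap2 -0.11 and Psmb10 -0.34 in APOE3 microbead against sham, Tapbp 0.16, Psmb9 0.00145, Psmb10 0.27 and Nlrc5 0.23 in the interaction, H2-K1 0.18, B2m 0.13 and Psmb10 0.68 in APOE4 against APOE3 microbead. With monocyte markers as a covariate, the genes called numbered 4 in APOE3 microbead against sham, 9 in APOE4 microbead against sham and 0 in the interaction, APOE4 against APOE3 microbead and APOE4 against APOE3 sham, and the members called 0 in APOE3 microbead against sham. Log2 values of the other sign were Tap2 -0.0546 and Psmb10 -0.28 in APOE3 microbead against sham, Nlrc5 0.23 in the interaction, H2-K1 0.0374, B2m 0.0691, Tap1 -0.15 and Psmb10 0.50 in APOE4 against APOE3 microbead. With limma on log2(TPM + 1), the genes called numbered 40 in APOE3 microbead against sham, 2 in APOE4 microbead against sham, 3 in the interaction and 17 in APOE4 against APOE3 microbead, and the members called 0 in APOE3 microbead against sham. On the log2 scale the sign turned for B2m -0.0328, Tapbp -0.15, Psmb8 -0.0394 and Psmb9 -0.0531 in APOE4 microbead against sham, Tap1 -0.0995 and Tap2 -0.17 in the interaction, Tap2 -0.17, Tapbp -0.0448 and Nlrc5 -0.49 in APOE4 against APOE3 microbead, Tap1 0.23 in APOE4 against APOE3 sham. With protein coding transcripts only, an alternative chosen after seeing the data, the genes called numbered 253 in APOE3 microbead against sham, 2 in APOE4 microbead against sham, 26 in APOE4 against APOE3 microbead and 0 in the interaction and APOE4 against APOE3 sham, and the members called 3 in APOE3 microbead against sham. Sign changes there were Tap2 -2.31 in APOE3 microbead against sham, Tap2 -1.31 and Psmb9 -0.39 in APOE4 microbead against sham, Nlrc5 0.0652 in the interaction, Psmb9 0.12 in APOE4 against APOE3 microbead, Psmb9 0.60 in APOE4 against APOE3 sham. With 1 library left out in turn, the genes called ranged over 225 to 478 in APOE3 microbead against sham, 2 to 17 in APOE4 microbead against sham, 0 to 30 in the interaction, 11 to 121 in APOE4 against APOE3 microbead and 0 to 1 in APOE4 against APOE3 sham, and the members called over 2 to 5 in APOE3 microbead against sham and 0 to 1 in APOE4 microbead against sham. In APOE3 microbead against sham, leaving out 1 library moved Tap2 -0.17 to 0.22 on the log2 scale. In APOE4 microbead against sham, leaving out 1 library moved Psmb10 -0.33 to 0.21 on the log2 scale. In the interaction, leaving out 1 library moved Tap1 -0.0177 to 0.61, Tapbp -0.33 to 0.13, Psmb9 -0.52 to 0.12 and Nlrc5 -0.89 to 0.12 on the log2 scale. In APOE4 against APOE3 microbead, leaving out 1 library moved H2-K1 -0.31 to 0.17, B2m -0.16 to 0.0986, Tap1 -0.22 to 0.42, Tap2 -0.044 to 0.43, Tapbp -0.0882 to 0.33, Psmb9 -0.56 to 0.0813, Psmb10 -0.73 to 0.0083 and Nlrc5 -0.28 to 0.74 on the log2 scale. In APOE4 against APOE3 sham, leaving out 1 library moved Tap2 -0.27 to 0.12 and Psmb9 -0.29 to 0.14 on the log2 scale. The count of 2 members came without APOE3 microbead 2, and 3 were called without APOE3 sham 4. The member called in APOE4 came without APOE4 microbead 1. Replicate numbers did not pair libraries (correlations of -0.144 to 0.0986 over 13 pairs), so the block result bears on shared numbers only. Library totals shifted the all-gene median by -0.23 in APOE4 microbead against sham, -0.21 in the interaction and 0.16 in APOE4 against APOE3 sham. The TPM fit shifted these by -0.29, -0.29 and 0.19. The cause of these changes was not tested.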
